A study of Mus musculus with 8 samples.

Results

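Laminins and the proteins that tie them into basement membranes were examined here as 10 listed mouse genes out of 34610 in the gene table used: the laminin α chain genes Lama1, Lama3 and Lama5, the β chain genes Lamb1 and Lamb2, the γ chain genes Lamc1 and Lamc3, the nidogen gene Nid2, the perlecan gene Hspg2 and the agrin gene Agrn. The genes were taken by name, with all measured CpG cytosines inside each gene or within 5 kb of it. CpG methylation had been measured by reduced representation bisulfite sequencing, which reads CpG-rich restriction fragments after bisulfite conversion. The DNA came from the dissected layer labelled dDG DGC, read here as dorsal dentate gyrus granule cells, of male C57 BL/6 mice: 4 mice of a cocaine self-administration group and 4 mice of a saline group, with 1 library per mouse. Age, cocaine dose and the number of sessions are not given in the labels, and no transgene or deletion is listed for either group. The title of the series names hippocampal learning about cocaine reward and extracellular matrix genes, and the question put to these 10 genes was whether their methylation differed between cocaine and saline mice. No gene end, gene interior or run of CpGs of the 10 genes passed the test. The 4 known starts that could be read were almost free of methylation. Gene bodies were methylated, in Lamb1 only beyond a low stretch that reaches 1947 bp into the gene. Cocaine means were more often below than above the saline means, as they were over the whole genome.

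A laminin is a secreted trimer of an α, a β and a γ chain that assembles into sheets on cell surfaces, where dystroglycan and integrins hold it. Nidogens bridge the laminin sheet to collagen IV, and perlecan and agrin are heparan sulfate proteoglycans that bind laminin and its receptors. In brain such sheets lie mainly around blood vessels and under the pia, and a CpG-rich gene start is usually little methylated while the body of a gene is usually highly methylated.

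The genes lie at chr17:67697127-67822645 (Lama1), chr18:12333417-12583013 (Lama3), chr2:180176373-180225904 (Lama5), chr12:31265146-31329644 (Lamb1), chr9:108479847-108490530 (Lamb2), chr1:153218922-153332786 (Lamc1), chr2:31887281-31949083 (Lamc3), chr14:19751257-19811787 (Nid2), chr4:137468751-137570630 (Hspg2) and chr4:156165290-156197533 (Agrn) in mm10. The gene table gives no exons, so exons, introns and untranslated regions were not told apart. Of the 174 runs described next, 24 lie outside the 10 genes within 5 kb, and 25 lie within another annotated gene.

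All 8 libraries covered 1776 cytosines of the 10 genes with at least 10 reads each, from 95 in Lama1 to 442 in Hspg2. They formed 174 runs of CpGs, a run being at least 3 cytosines with gaps of at most 100 bp. Of these, 141 had a pooled level from 5% to 95% and were tested, 27 lay under 5% and 6 over 95%. Summed coverage ran from 87964952 to 116317068 reads in the cocaine libraries and from 102632052 to 141775386 in the saline libraries. Cocaine 3 and saline 1 stood apart at these genes. Cocaine 3 was the lowest of the 8 in 41 of the 141 tested runs, more often than any other library. Saline 1 read exactly 0% or 100% at 51 of 339 cytosines of intermediate level (15.0%), against 0 to 20 (0% to 5.90%) in the other 7 libraries. This was so across the genome too. Over all its cytosines of intermediate level the share was 11.1% in saline 1 and 0.168% to 3.67% in the other 7 libraries. At 308 CpGs read on both strands, the mean levels of the strands differed by a median of 1.29 points.

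Where RefSeq gives a promoter, from 250 bases before the start to 50 after it, the sequence shows how CpG-rich it is and which CpGs were read in every library. 5 of the 10 genes have an entry in the RefSeq promoter table (GRCm38.p6, whose primary chromosomes share mm10 coordinates). They are shown here because 4 of these gene starts were read and were almost free of methylation, while the start of Lamb2, a β chain gene, could not be read. Capitals mark CpGs with a measured cytosine, and the last base of the Lamb1 entry is the C of a CpG that ends outside it. The entries lie at chr2:180225810-180226109 (minus strand, Lama5), chr12:31265043-31265342 (plus strand, Lamb1), chr9:108479612-108479911 (plus strand, Lamb2), chr4:137468553-137468852 (plus strand, Hspg2) and chr4:156197439-156197738 (minus strand, Agrn), each read 5′ to 3′.
Lama5: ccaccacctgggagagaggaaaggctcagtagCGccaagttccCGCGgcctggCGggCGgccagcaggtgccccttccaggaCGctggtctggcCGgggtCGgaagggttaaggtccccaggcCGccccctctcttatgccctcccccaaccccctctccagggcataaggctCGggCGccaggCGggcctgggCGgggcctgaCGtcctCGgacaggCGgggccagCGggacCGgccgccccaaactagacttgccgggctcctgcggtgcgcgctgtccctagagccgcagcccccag
Lamb1: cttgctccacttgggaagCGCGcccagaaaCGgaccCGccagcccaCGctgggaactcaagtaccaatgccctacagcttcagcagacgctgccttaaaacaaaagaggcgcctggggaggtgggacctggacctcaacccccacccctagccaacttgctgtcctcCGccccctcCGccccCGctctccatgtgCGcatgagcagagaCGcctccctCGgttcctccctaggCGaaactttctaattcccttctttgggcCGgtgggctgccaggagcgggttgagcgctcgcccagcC
Lamb2: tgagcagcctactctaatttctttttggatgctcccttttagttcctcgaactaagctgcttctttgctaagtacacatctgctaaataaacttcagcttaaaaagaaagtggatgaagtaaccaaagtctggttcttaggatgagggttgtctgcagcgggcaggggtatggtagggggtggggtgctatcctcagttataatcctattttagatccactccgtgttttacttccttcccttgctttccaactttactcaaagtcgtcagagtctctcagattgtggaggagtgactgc
Hspg2: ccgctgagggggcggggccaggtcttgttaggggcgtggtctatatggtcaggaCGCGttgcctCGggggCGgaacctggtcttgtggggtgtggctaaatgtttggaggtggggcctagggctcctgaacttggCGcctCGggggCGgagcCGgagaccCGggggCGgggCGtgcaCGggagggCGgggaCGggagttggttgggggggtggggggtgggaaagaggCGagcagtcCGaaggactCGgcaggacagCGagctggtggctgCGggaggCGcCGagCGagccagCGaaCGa
Agrn: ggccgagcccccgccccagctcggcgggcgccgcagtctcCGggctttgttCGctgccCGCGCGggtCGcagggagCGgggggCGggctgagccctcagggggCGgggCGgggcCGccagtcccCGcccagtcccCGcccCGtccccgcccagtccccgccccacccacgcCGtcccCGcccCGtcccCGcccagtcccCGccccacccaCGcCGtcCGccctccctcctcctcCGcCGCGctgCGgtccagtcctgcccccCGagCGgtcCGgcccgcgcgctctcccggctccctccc

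These windows held 24 CpGs in Lama5, 18 in Lamb1, 4 in Lamb2, 27 in Hspg2 and 42 in Agrn, against a median of 7 over the 32851 promoters of the table. The ratio of observed to expected CpGs was 0.276 in Lamb2 and from 0.607 to 0.877 in the other 4, against a median of 0.384 over all promoters. On both strands, the letters CCGG occurred 3 times in Lama5, 1 time in Lamb1, 2 times in Hspg2 and 3 times in Agrn, and 52.8% of all promoters hold them. The GC box letters GGGCGG, which can share bases with CCGG, occurred 4 times in Lama5, 2 times in Lamb1, 5 times in Hspg2 and 12 times in Agrn, and 35.7% of all promoters hold them. The Lamb2 window held neither, and TATAAA, present in 13.6% of all promoters, was in none of the 5.

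The measured CpGs of these starts averaged under 2% in every mouse except at Agrn in saline 1. Lama5, whose α chain enters laminins of vessel walls, averaged 0.354% ± 0.388 in cocaine mice and 0.290% ± 0.344 in saline mice over 24 cytosines of the window (SD, n = 4 each). Hspg2 averaged 0.320% ± 0.193 in cocaine mice and 0.555% ± 0.430 in saline mice over 28 cytosines. The Lamb1 window, with 14 cytosines, read 0% in all 4 cocaine mice and in saline 1, 2 and 3, and 0.480% in saline 4. On 305 to 609 reads summed over the cytosines, the 7 values of 0% allow levels of up to 0.493% to 0.984%, counting error alone. This takes every call as independent. A read that spans several cytosines is counted at each, with 16 to 50 reads per cytosine here, so the true limits are higher. Agrn had the highest single value, 6.52% in saline 1, over 29 cytosines. Saline 2 read 1.07% there and saline 3 and 4 read 0%. On 2438 and 2152 summed reads, and again taking calls as independent, this allows up to 0.123% and 0.139%. The cocaine mice read 0.155% to 1.80%, so the groups overlapped. None of these windows reached the pooled level of 5% needed for a test.

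Each of these 4 starts lay in a longer unmethylated stretch of runs under 10%, and these stretches differed in length. Around the start of Lamb1 the stretch spanned 2080 bp with 81 cytosines, of which 1947 bp lay inside the gene, and averaged 1.43% ± 0.897 in cocaine mice and 1.83% ± 1.31 in saline mice (SD, n = 4 each). The next run into the gene began 3.60 kb further on, at 86.8%. Agrn had a stretch of 1474 bp with 53 cytosines at 0.724% ± 0.617 in cocaine mice and 1.38% ± 2.19 in saline mice. The Lama5 stretch measured 988 bp, and the next run into the gene, 0.171 kb on, stood at 23.2%. The Hspg2 stretch measured 711 bp, and the next run, 2.27 kb on, stood at 79.4%. The gaps after the Lamb1 and Hspg2 stretches hold no run read in all libraries, so their inner borders were not placed.

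**Figure D1:**
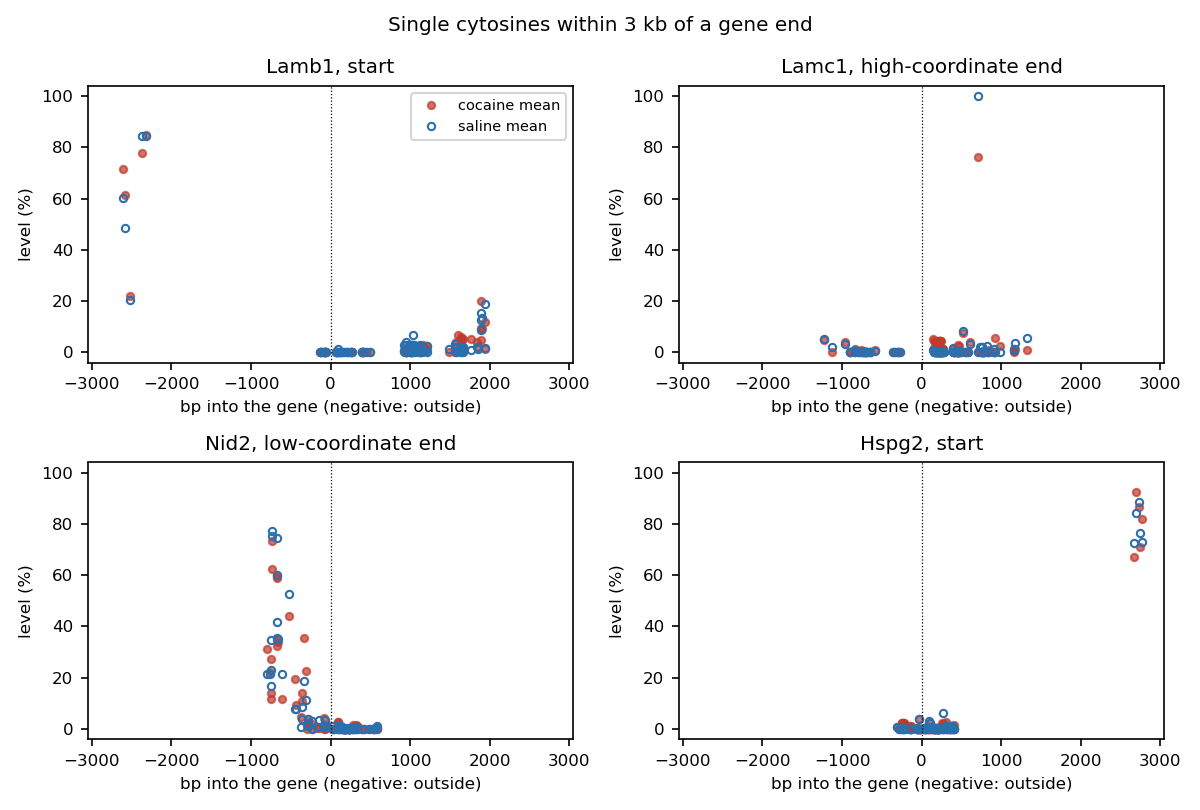
Level of single CpG cytosines (%, vertical) against their distance into the gene (bp, horizontal, negative values outside) at 1 end of Lamb1, Lamc1, Nid2 and Hspg2. Filled red points are means of the 4 cocaine mice and open blue circles means of the 4 saline mice; in Lamb1, Lamc1 and Hspg2 the low cytosines reach across the dotted gene end, while in Nid2 levels climb outside the gene.

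The strand of the other 5 genes is not in the tables used, so their ends are named by coordinate. The higher-coordinate end of Lamc1, the γ chain shared by most laminins, held the longest low stretch of the 10 genes, 2127 bp with 98 cytosines. It read 2.51%, 0.556%, 1.69% and 0.289% in cocaine mice 1 to 4, against 0.890%, 0.372%, 0.853% and 0.465% in saline mice 1 to 4. Cocaine 1 and cocaine 3 were above all saline mice, and cocaine 4 was below them. A single cytosine within the stretch, 712 bp into the gene, stood at 76.2% in cocaine mice and 100% in saline mice. At the lower-coordinate end of Lama1, whose α chain is best known from embryonic basement membranes, 8 cytosines averaged 0.361% ± 0.723 in cocaine mice and 0.509% ± 0.895 in saline mice.

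Nid2, which encodes a nidogen, had a graded end. In the window of 1 kb either side of its lower-coordinate end, 85 cytosines averaged 6.73% ± 0.870 in cocaine mice and 7.46% ± 1.39 in saline mice (adjusted p = 0.949, n = 4 each). Inside the gene, from 100 to 300 bp, 33 cytosines averaged 0.156% in cocaine mice and 0.106% in saline mice. In the first 300 bp outside it, 11 cytosines averaged 1.31% in cocaine mice and 1.85% in saline mice. Further out, 9 cytosines at 300 to 600 bp averaged 16.7% ± 2.50 in cocaine mice and 9.92% ± 3.17 in saline mice, with 3 of the cocaine mice above every saline mouse. A further 13 cytosines at 600 to 1000 bp averaged 37.5% ± 1.84 in cocaine mice and 41.6% ± 2.18 in saline mice, so neighbouring bins had opposite signs. These bins were drawn after the values of the cytosines were seen and were not tested.

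Lama3, whose α chain belongs to the laminin that anchors epithelia, and Lamc3, a γ chain gene, had ends with higher averages than the known starts. The lower-coordinate end of Lama3 averaged 7.52% ± 1.74 in cocaine mice and 8.21% ± 2.49 in saline mice over 20 cytosines (adjusted p = 0.976, n = 4 each). Within it, 2 cytosines in the first 100 bp stood at 62.8% in cocaine mice and 50.2% in saline mice, while 18 cytosines from 300 to 1000 bp stood at 0.458% in cocaine mice and 2.42% in saline mice. The ends of Lamc3 averaged 9.11% ± 1.77 in cocaine mice and 11.6% ± 2.55 in saline mice at the lower coordinate (24 cytosines, adjusted p = 0.887), and 21.5% ± 3.34 in cocaine mice and 25.0% ± 0.932 in saline mice at the higher one (14 cytosines, adjusted p = 0.893). The highly methylated ends were the higher-coordinate end of Lama1, at 85.9% ± 8.37 in cocaine mice and 90.6% ± 6.17 in saline mice on 6 cytosines, and the lower-coordinate end of Lamc1, at 69.3% ± 8.04 in cocaine mice and 77.6% ± 7.52 in saline mice on 5 cytosines. The Lama1 difference of -4.73 points was -0.658 points without cocaine 4, at 73.7%, -2.70 without saline 4 and -7.59 without saline 1.

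In all, 13 of the 20 gene ends had at least 5 common cytosines and 7 had none. The 76 cytosines at the far end of Lamb2, at 0.230% in cocaine mice and 0.121% in saline mice, lie in the neighbouring Usp19, whose end falls within 1 kb. Only 6 ends passed the filter on level: the higher-coordinate end of Lama1, the lower-coordinate ends of Lama3, Lamc1 and Nid2, and both ends of Lamc3. By the quasi-binomial test moderated with limma, 0 of the 6 were called at an adjusted p under 0.05 with at least 5 points (0% of the 7336 gene ends of the genome), none reached an unadjusted p under 0.05 (5.78% of all gene ends), and their adjusted p values lay between 0.887 and 0.976. All 6 had the lower mean in cocaine mice, as had 64.2% of all tested ends, and in none of the 6 did the groups stand apart (3.6% of all).

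**Figure D2:**
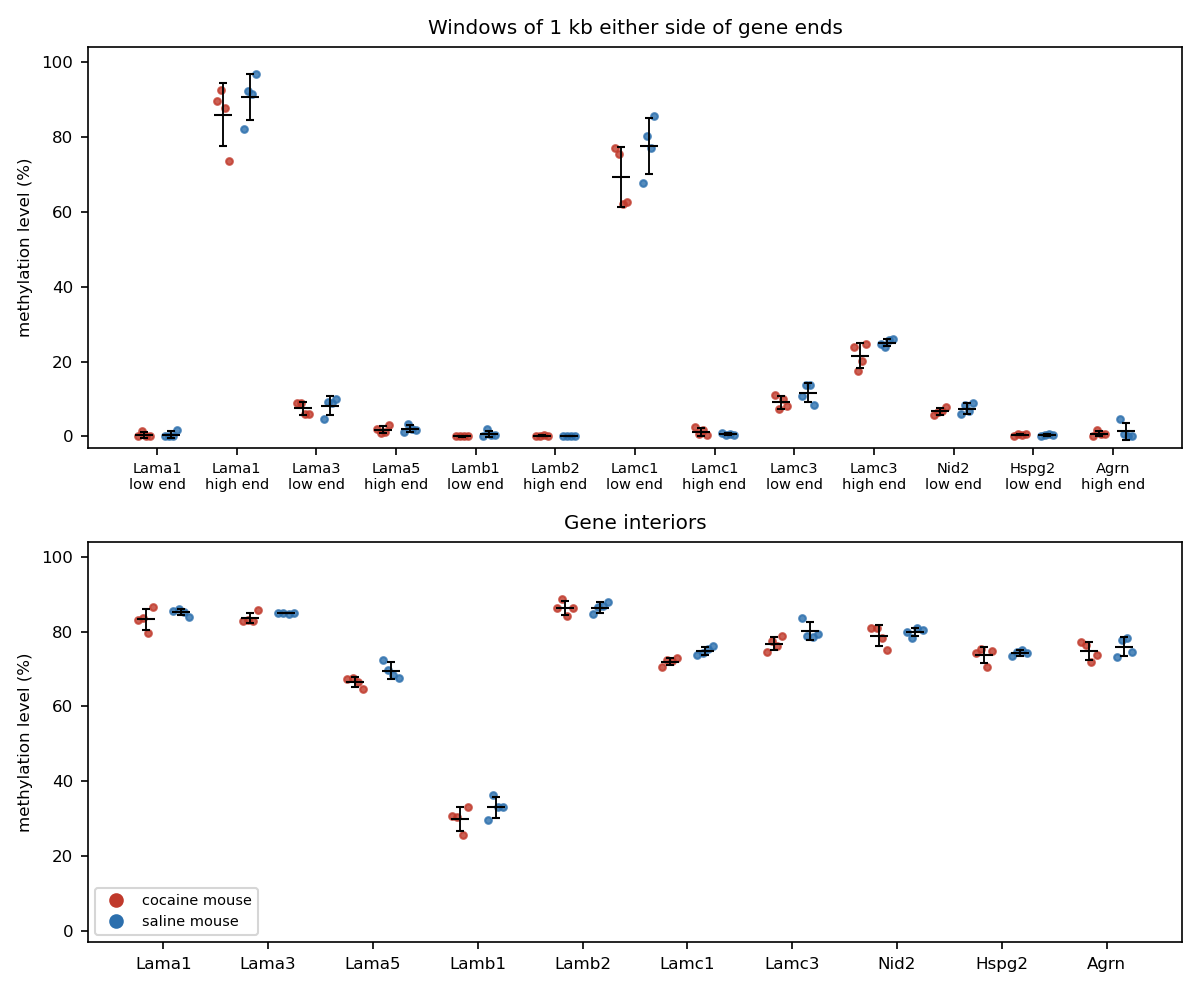
Methylation level (%) of each mouse at the 13 measured gene ends (upper panel) and the 10 gene interiors (lower panel), with cocaine mice in red left of saline mice in blue and bars for the mean and SD of 4 mice. 11 of the 13 ends average under 25%, 9 interiors average from 68.1% to 86.4% and that of Lamb1, part of which is the low stretch at its start, averages 31.6%; groups stand apart only in the Lama5 and Lamc1 interiors.

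Gene interiors, over 1 kb from either end, were highly methylated in 9 of the 10 genes. Averaged over all 8 mice, the levels ran from 86.4% in Lamb2 through 84.3% in Lama3, 84.2% in Lama1, 79.4% in Nid2, 78.4% in Lamc3, 75.4% in Agrn, 74.0% in Hspg2, 73.4% in Lamc1 and 68.1% in Lama5 to 31.6% in Lamb1, against a median of 70.3% over 14638 tested interiors. Neighbours in this order differed by more than the SD of their difference, with the same sign in all 8 mice, between Lama1 and Nid2 (4.83 points), between Lamc1 and Lama5 (5.36 points) and between Lama5 and Lamb1 (36.5 points). Lamb2 and Lama3 differed by 2.08 points, with an SD of the difference of 1.84 points and the same order in 7 of 8 mice, and the other 5 neighbouring pairs differed by less than the SD of their difference. These levels weight each cytosine by its reads. With equal weight per cytosine, Lama1 stood at 84.7% and Nid2 at 82.7%, and Lamc1 stood at 76.4% and Lama5 at 76.3%, so both gaps were smaller than with weights by reads.

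The low value of Lamb1 depends on where the interior begins. 42 of its 81 interior cytosines were under 10%, and the low stretch at its start reaches 1947 bp in. Over the 35 cytosines more than 2 kb from either end, Lamb1 averaged 78.8% ± 0.575 in cocaine mice and 80.4% ± 3.15 in saline mice, and its runs beyond the stretch stood at 86.8%, 85.6%, 95.6%, 76.1% and 49.5%. With that border the 10 genes ran from 85.6% in Lamb2 to 68.6% in Lama5. Interiors under 35% were not rare, at 25.3% of the 16098 measured.

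From 1 kb inward, Lamb1 had 30.9%, 30.4%, 25.6% and 33.2% in cocaine mice 1 to 4, against 29.7%, 36.4%, 33.0% and 33.0% in saline mice 1 to 4. Cocaine 3 was the lowest and saline 2 the highest, and the groups overlapped (adjusted p = 0.811).

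All 10 interiors had the lower mean in cocaine mice, as had 71.2% of all tested interiors. None was called at an adjusted p under 0.05 with at least 5 points (0% of 14638), and none of the 10 reached an unadjusted p under 0.05 (6.8% of 14638). The differences lay between -3.28 points in Lamc3 and -0.103 points in Lamb2, with a median of -1.62, beside -1.29 over all tested interiors. Cocaine 3 was the lowest library in 5 of the 10. Without it, 8 of 10 interiors were lower in cocaine mice, with Hspg2 at 0.513 points and Lamb2 at 0.631 points higher, and 8 of 10 were lower without both cocaine 3 and saline 1.

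The groups stood apart in 2 of the 10 interiors, those of Lama5 and Lamc1, both lower in cocaine mice (4.39% of all tested interiors stood apart, and 3.93% in that direction). Lama5 had 67.4%, 67.5%, 66.5% and 64.8% in cocaine mice 1 to 4, against 72.5%, 69.8%, 68.5% and 67.5% in saline mice 1 to 4, over 126 cytosines. The gap between the highest cocaine mouse and the lowest saline mouse was the difference between 67.49% and 67.54%. Lamc1 had 70.5%, 72.3%, 72.2% and 72.9% in cocaine mice 1 to 4, against 73.7%, 74.3%, 75.4% and 76.1% in saline mice 1 to 4, over 75 cytosines. Neither passed the test, with a difference of -3.05 points in Lama5 (adjusted p = 0.760) and of -2.92 points in Lamc1 (adjusted p = 0.749). Without cocaine 3 and saline 1 the differences were -2.07 points in Lama5 and -3.39 points in Lamc1. Over cytosines more than 2 kb from either end, the Lama5 groups overlapped, at 64.1% to 68.4% in cocaine mice and 68.3% to 74.0% in saline mice. The Lamc1 difference was -1.30 points there, and the groups stood narrowly apart, at 79.14% to 80.67% in cocaine mice and 80.76% to 81.86% in saline mice.

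The Lamc3 interior, on 32 cytosines, averaged 76.8% ± 1.84 in cocaine mice and 80.1% ± 2.40 in saline mice (adjusted p = 0.803). Its saline mean rested partly on saline 1, at 83.7%. Lama1 averaged 83.3% ± 2.78 in cocaine mice and 85.2% ± 0.852 in saline mice, and Lama3 averaged 83.6% ± 1.36 in cocaine mice and 85.0% ± 0.118 in saline mice. Among the linkers, Nid2 averaged 78.9% ± 2.79 in cocaine mice and 79.9% ± 1.15 in saline mice. Agrn averaged 74.8% ± 2.48 in cocaine mice and 76.0% ± 2.50 in saline mice. Hspg2, the best covered gene with 349 interior cytosines and 10991 to 22024 reads per library, averaged 73.7% ± 2.20 in cocaine mice and 74.3% ± 0.736 in saline mice. In all of these the ranges of the groups overlapped.

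**Figure D3:**
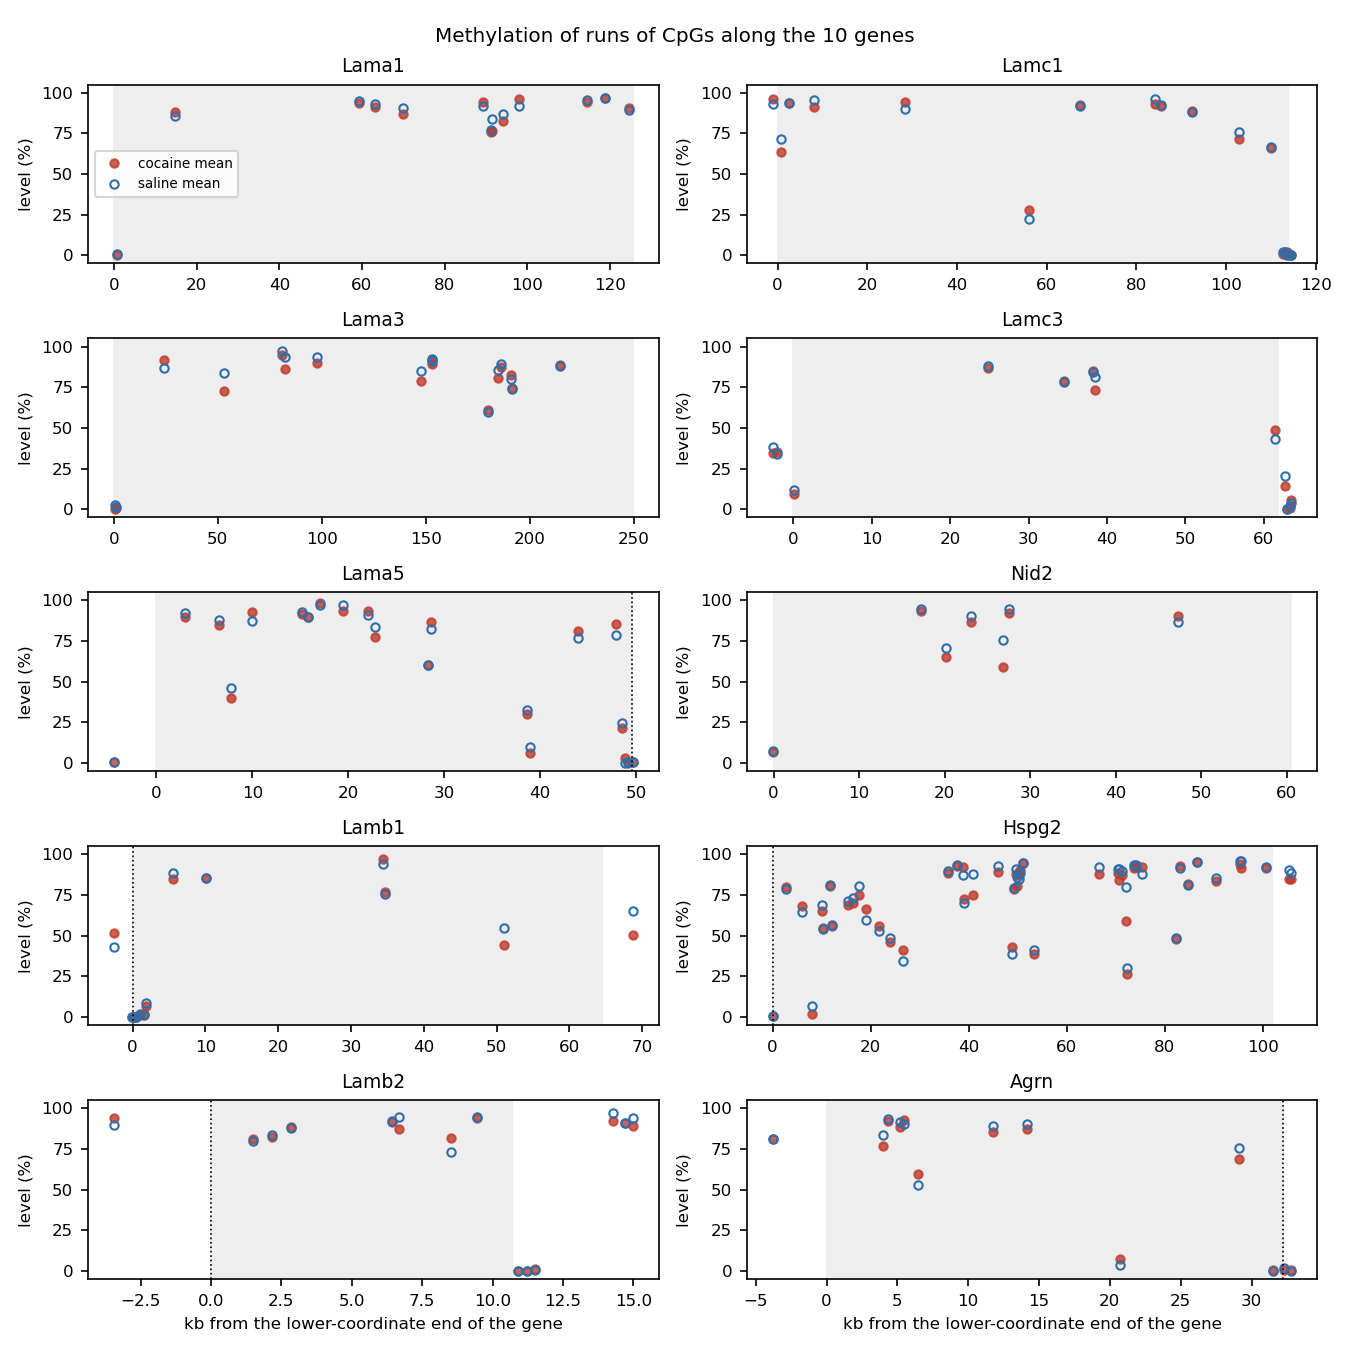
Mean methylation level (%) of each run of CpGs against its distance (kb) from the lower-coordinate end of the gene, for the 10 genes. Red points are means of the 4 cocaine mice and open blue circles means of the 4 saline mice, grey marks the gene and dotted lines the RefSeq start where known; low runs sit at 1 or both ends, with isolated low runs inside Lama5, Lamb1, Lamc1, Hspg2 and Agrn.

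Within the interiors, 85 of 130 runs were over 80%, 29 lay from 50% to 80% and 16 were under 50%. The low runs fell in Hspg2 (7), Lama5 (3), Lamb1 (3), Lamc1 (2) and Agrn (1). The other 5 genes had none. Some were isolated dips within a methylated gene body. In Lama5, 10.6 kb from the start, the run chr2:180215244-180215300 averaged 6.04% ± 3.54 in cocaine mice and 10.1% ± 3.09 in saline mice, and its neighbour chr2:180214910-180215137 averaged 30.2% ± 3.46 in cocaine mice and 32.8% ± 2.44 in saline mice. In Lamc1 the run chr1:153274907-153275014 averaged 28.1% ± 3.72 in cocaine mice and 22.4% ± 10.3 in saline mice, with saline 1 at 7.18%. In Agrn the run chr4:156186007-156186064 averaged 7.16% ± 4.89 in cocaine mice and 3.48% ± 3.27 in saline mice. It lies next to a second Agrn promoter entry of RefSeq at chr4:156186210-156186509, minus strand, none of whose 11 CpGs was read in all libraries. In Lamb1, a run 51.1 kb from the start, chr12:31316171-31316296, averaged 44.4% ± 5.69 in cocaine mice and 54.6% ± 11.4 in saline mice, with saline 1 at 71.5%.

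A single dip in Hspg2 separated the groups. At chr4:137476683-137476774, 7.98 kb from the start, 4 cytosines read 3.03%, 3.55%, 2.08% and 0% in cocaine mice 1 to 4, against 4.13%, 7.64%, 6.59% and 8.30% in saline mice 1 to 4. Every cocaine mouse was below every saline mouse, and the difference of -4.50 points did not pass the test (adjusted p = 0.880). Coverage summed over the 4 cytosines was 48 to 242 reads per library. The 0% in cocaine 4, on 103 such reads, allows a level of up to 2.91% if calls are independent. The other 6 low runs of Hspg2, between 28.3% and 48.1% over all mice, overlapped between the groups.

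Across the 141 tested runs of the 10 genes, 0 were called at an adjusted p under 0.05 with at least 10 points (0% of the 95079 tested runs of the genome). At an unadjusted p under 0.05 there were 4 runs, or 2.84%, against 5.68% of all tested runs, 2 of them lower (4.58% of all) and 2 higher in cocaine mice (1.1% of all). In 86 of the 141 the cocaine mean was lower (61.0%), against 61.6% of all tested runs. The median difference was -1.11 points, beside -1.05 over all tested runs, and single runs ranged from -21.2 to 8.83 points. The groups stood apart in 4 runs (2.84%, against 3.31% of all), 2 lower in cocaine mice (2.59% of all) and 2 higher (0.714% of all). Without cocaine 3 and saline 1, 85 of the 141 runs were lower in cocaine mice and 6 had an unadjusted p under 0.05. The lowest adjusted p in the full data was 0.875. By gene, the share of tested runs lower in cocaine mice ran from 50% in both Lamc1 and Lamc3 to 85.7% in Nid2, which had 7 runs.

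**Figure D4:**
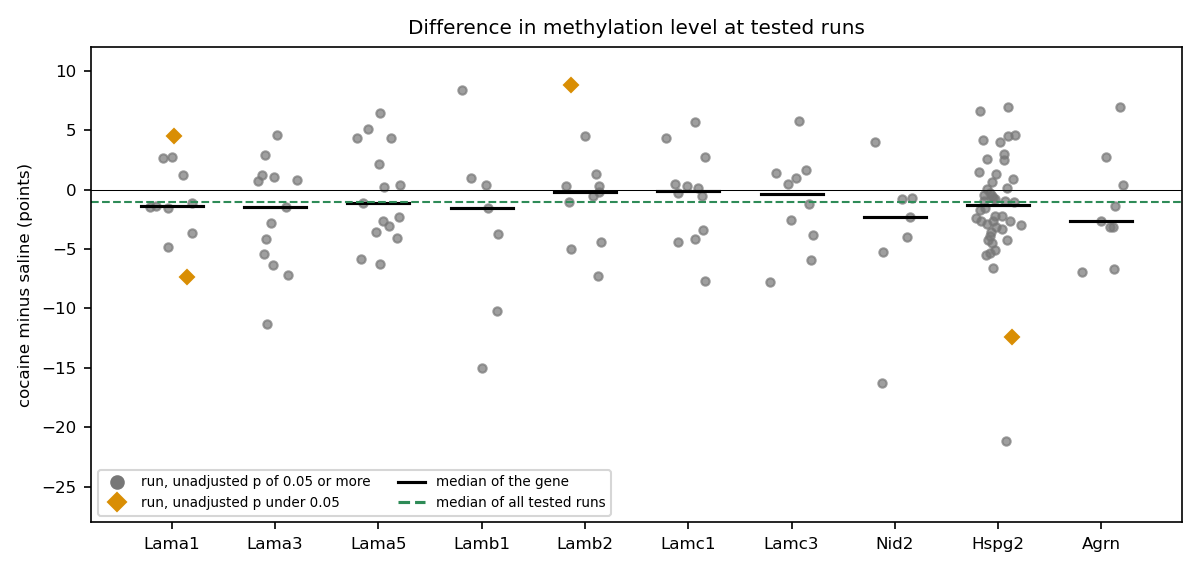
Difference in methylation level, cocaine minus saline (percentage points), of each tested run by gene. Points are single runs, orange diamonds the 4 runs with an unadjusted p under 0.05, black lines the median of each gene and the dashed line the median of all tested runs of the genome (-1.05); each gene's runs lie on both sides of 0.

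The 4 runs with an unadjusted p under 0.05 lay in Lama1, Lamb2 and Hspg2, all inside the genes. The Hspg2 run chr4:137509405-137509632, 40.8 kb from the start, read 72.0%, 84.9%, 69.7% and 74.7% in cocaine mice 1 to 4, against 90.0%, 84.9%, 86.8% and 89.5% in saline mice 1 to 4. Cocaine 1, 3 and 4 were below every saline mouse, and cocaine 2, at 84.91%, lay just above saline 2, at 84.86%. The cocaine mean was lower at each of its 6 cytosines, by 3.53 to 23.0 points, and the difference of -12.4 points had an adjusted p of 0.875. Leaving out single mice gave differences from -15.6 to -10.5 points, and without both cocaine 3 and saline 1 it was -9.80 points.

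Lama1 had 2 such runs of opposite sign, 91.5 and 98.1 kb from its lower-coordinate end. At chr17:67788557-67788762 the level was 71.3%, 81.5%, 74.6% and 78.3% in cocaine mice 1 to 4, against 90.9%, 83.2%, 84.9% and 76.3% in saline mice 1 to 4. Saline 4 fell within the range of the cocaine mice, and the mean was lower in cocaine mice at all 8 cytosines. At chr17:67795206-67795252 the level was 96.9%, 96.2%, 96.9% and 94.3% in cocaine mice 1 to 4, against 89.5%, 91.4%, 92.6% and 92.8% in saline mice 1 to 4. Here every cocaine mouse was above every saline mouse. The differences of -7.38 and 4.51 points each had an adjusted p of 0.875, and without cocaine 3 and saline 1 they were -4.40 and 3.54 points.

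In Lamb2, whose β chain is found at synapses and in vessel and kidney basement membranes, the run chr9:108488315-108488396 was higher in cocaine mice. It read 78.4%, 84.8%, 76.4% and 87.7% in cocaine mice 1 to 4, against 64.0%, 75.8%, 72.6% and 79.6% in saline mice 1 to 4. Saline 1 was the lowest, and saline 4 lay above cocaine 1 and cocaine 3. All 6 cytosines had the higher mean in cocaine mice, and the difference of 8.83 points (adjusted p = 0.875) was 5.83 points without saline 1.

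Each of the other 7 genes is represented by its run of smallest p. Outside Lamc3, past its higher-coordinate end, the run chr2:31949863-31949976 read 8.17%, 16.0%, 14.9% and 18.4% in cocaine mice 1 to 4, against 20.4%, 20.3%, 19.9% and 20.5% in saline mice 1 to 4. All cocaine mice were below the saline mice, which lay close together (difference -5.89 points, adjusted p = 0.875). The 10 cytosines of the run are among the 14 of the window at that end, so the 2 results are not separate. Of its 10 cytosines, 7 had the lower and 3 the higher mean in cocaine mice, and the difference was -2.86 points with equal weight per cytosine and -3.82 without cocaine 1. In the longer run that gaps of up to 200 bp give, it was -0.228 points. The run is followed by the end of the neighbouring gene Aif1l, whose 3 runs within 5 kb of Lamc3 averaged 0.356%, 0.587% and 5.55% in cocaine mice and 0.0952%, 2.23% and 3.87% in saline mice. In Agrn, 3.11 kb from the start, chr4:156194313-156194529 averaged 68.8% ± 2.96 in cocaine mice and 75.8% ± 2.88 in saline mice, with cocaine 2 above saline 4 alone. Its difference of -6.91 points was -3.49 points with equal weight per cytosine, and 5 of its 7 cytosines had the lower and 2 the higher mean in cocaine mice. The run named for Lamb1, chr12:31333812-31333911, lies outside it within Dld and averaged 50.5% ± 15.2 in cocaine mice and 65.5% ± 9.23 in saline mice. Without cocaine 3, at 29.2%, its difference was -7.94 points in place of -15.0.

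The named runs of Lama3, Lama5, Lamc1 and Nid2 were all over 80% methylated. Lama3, at chr18:12415491-12415630, averaged 86.4% ± 5.35 in cocaine mice and 93.6% ± 4.15 in saline mice. The other 3 were higher in cocaine mice by 5.11 points in Lama5 (92.7% ± 4.04 in cocaine mice and 87.6% ± 5.05 in saline mice), by 4.30 points in Lamc1 (94.5% ± 1.19 in cocaine mice and 90.2% ± 4.12 in saline mice) and by 4.03 points in Nid2 (90.6% ± 2.33 in cocaine mice and 86.6% ± 3.72 in saline mice). Their adjusted p values lay between 0.876 and 0.888, and the groups overlapped in all 4.

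**Figure D5:**
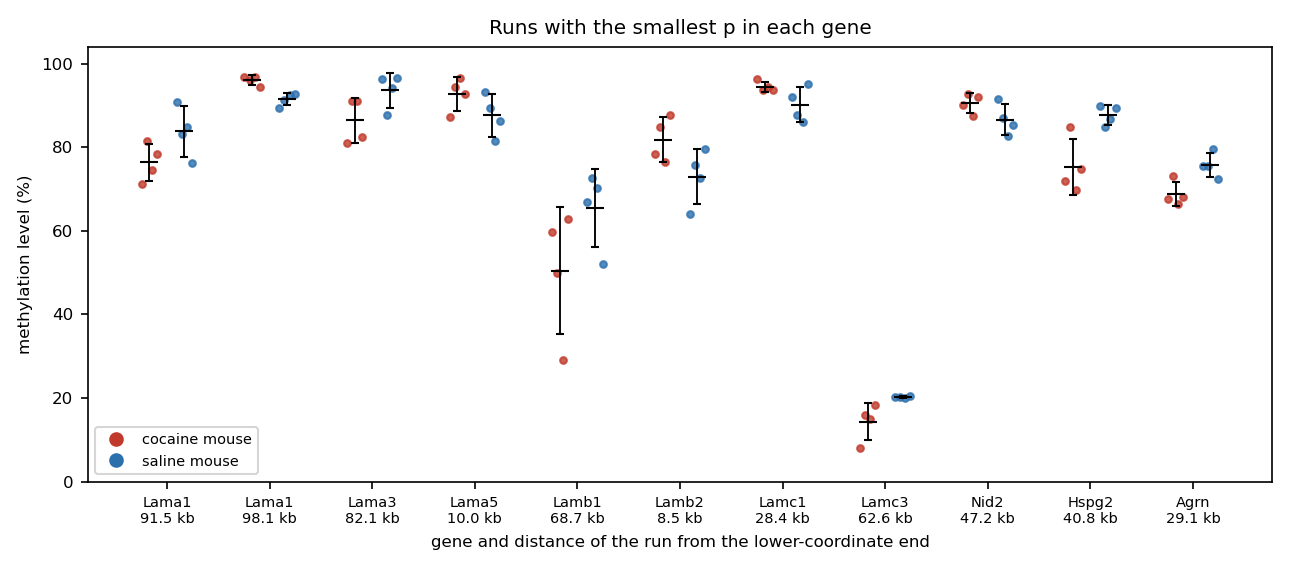
Methylation level (%) of each mouse at the 11 named runs, with cocaine mice in red left of saline mice in blue and bars for the mean and SD of 4 mice; the distance under each gene is from its lower-coordinate end. The groups stand apart at the Lama1 run at 98.1 kb and at the Lamc3 run, and overlap at the other 9.

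The largest differences in mean level did not have the smallest p. The run chr4:137540706-137540736 of Hspg2, chosen after its values were seen, had the largest difference, -21.2 points. It read 62.7%, 80.8%, 33.3% and 58.9% in cocaine mice 1 to 4, against 92.0%, 83.3%, 67.0% and 78.1% in saline mice 1 to 4, on 45 to 114 reads per library. Cocaine 3 was far below the rest, and cocaine 2 exceeded 2 saline mice. In Nid2 the run chr14:19778046-19778117, also chosen after its values were seen, read 55.0%, 94.7%, 45.3% and 41.8% in cocaine mice 1 to 4, against 100%, 66.0%, 75.0% and 60.8% in saline mice 1 to 4 (adjusted p = 0.995). The remaining run with separated groups, in Lama3 at chr18:12357488-12357642, averaged 91.5% in cocaine mice and 86.9% in saline mice (adjusted p = 0.884).

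Genes that act with these 10 in basement membranes were counted the same way. Of 30 other basement membrane genes, 218 runs were tested and 10 had an unadjusted p under 0.05 (4.59%), 9 lower and 1 higher in cocaine mice. Over all tested runs of the genome the share was 5.68%, with 4.58% lower and 1.1% higher in cocaine mice. Fras1, needed for adhesion of epithelia to their basement membrane, had the smallest p, with 87.6% ± 4.45 in cocaine mice and 96.5% ± 2.49 in saline mice at chr5:96781438-96781549 and no overlap (adjusted p = 0.875). Col4a2, a collagen IV chain, averaged 60.9% ± 9.86 in cocaine mice and 72.5% ± 4.88 in saline mice in its named run. Ntn1, the guidance cue netrin 1, was the higher one, at 15.1% ± 8.43 in cocaine mice and 6.21% ± 0.938 in saline mice, with cocaine 3 below all saline mice.

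A list drawn up for receptors of laminin, perlecan and agrin had 20 genes, of which 19 had a tested run. It also holds genes of proteins that are not such receptors, Utrn and Robo1 among them. Of 136 runs, 8 had an unadjusted p under 0.05 (5.88%, against 5.68% of all tested runs). Of these 8, 7 were lower (4.58% of all) and 1 was higher in cocaine mice (1.1% of all). Bcam, a laminin α5 receptor, averaged 90.5% ± 2.81 in cocaine mice and 97.9% ± 1.71 in saline mice with no overlap. Utrn, the dystrophin relative utrophin, averaged 89.8% ± 1.93 in cocaine mice and 93.8% ± 2.09 in saline mice, and Robo1, a receptor of Slit proteins, averaged 80.5% ± 4.08 in cocaine mice and 88.2% ± 5.17 in saline mice. Of 16 genes of dystroglycan glycosylation, the sugar modification that lets dystroglycan bind laminin, 14 had a tested run. Their 30 runs held 2 with an unadjusted p under 0.05 (6.67%, against 5.68% of all), both lower in cocaine mice. The run of smallest p lay in Dpm1, at 58.2% ± 4.24 in cocaine mice and 66.0% ± 4.15 in saline mice. Gmppb, which makes a mannose donor, averaged 92.6% ± 3.73 in cocaine mice and 89.3% ± 0.711 in saline mice in its named run, with overlap (adjusted p = 0.916). No run of the 3 lists was called.

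Since the tissue is a dissected layer, a difference in its cell makeup and a difference within 1 cell type cannot be told apart in these levels. Endothelial and mural cells, which lie on vascular basement membranes, were the marker set with the largest share of lower runs. Of 39 tested runs at 5 of its 7 genes (none at Rgs5 and Kcnj8), 34 had the lower mean in cocaine mice (87.2%), with a median difference of -4.16 points, against 61.6% and -1.05 points over all tested runs of the genome. Averaged over these runs, the level was 62.1%, 63.5%, 62.6% and 65.2% in cocaine mice 1 to 4, against 66.7%, 67.2%, 66.5% and 66.8% in saline mice 1 to 4. All cocaine mice were below all saline mice over these runs. The set was singled out by these same runs. Averages over runs were not in the plan for marker sets, which named levels at gene ends, and they were not tested. Flt1 supplied 19 of the 39 runs and 17 of the 34 lower ones. By gene, median differences ran from -5.55 points in Pdgfrb to -0.309 points in Pecam1. Over 7 gene ends of this set the groups overlapped, at 24.73% to 29.73% in cocaine mice and 29.13% to 30.15% in saline mice. By the quasi-binomial test, 2 of its 2 tested ends had an unadjusted p under 0.05 (5.78% of all tested ends), and 0 were called. Of its 39 runs, 4 had an unadjusted p under 0.05 (10.3%, against 5.68% of all). Of these, 3 were lower (4.58% of all) and 1 was higher in cocaine mice (1.1% of all). No run was called, and the part of these cells in the values of the 10 genes was not tested. The astrocyte markers stood apart too over tested runs, but not over gene ends. Over 25 tested runs they averaged 54.0% to 56.3% in cocaine mice and 56.4% to 58.3% in saline mice. Of these runs, 17 were lower in cocaine mice. Over 5 gene ends they averaged 17.84% to 26.85% in cocaine mice and 21.68% to 23.2% in saline mice. The 71 tested runs at dentate granule cell markers averaged 43.8% ± 3.93 in cocaine mice and 47.4% ± 2.77 in saline mice, with overlap, and 51 of them (71.8%) were lower in cocaine mice. Dentate granule cell markers averaged 21.1% ± 1.01 in cocaine mice and 22.3% ± 0.933 in saline mice over 9 gene ends, which ranged from 0.0978% to 92.9%. At pyramidal, interneuron, oligodendrocyte and microglia markers the groups overlapped both over tested runs and over gene ends. The share of their runs lower in cocaine mice lay between 56.25% (pyramidal) and 70.6% (interneuron). Methylation at marker genes does not show which cells were present.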

How the data were processed

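CpG methylation was read in 8 libraries, 1 per mouse, grouped by sample title into 4 cocaine and 4 saline mice. Per the submitters' processing notes, bcl2fastq and Bismark 22.1 were used, with the genome build mm10. How reads were trimmed and whether duplicates were removed is not given in the sources used here. The deposited level of each cytosine is a fraction from 0 to 1, multiplied here by 100, and its deposited read count is at least 10. Their product gave whole methylated reads within 5e-07 times the coverage. Reads of a run, end, interior or promoter window are summed over its cytosines, so a read is counted at each cytosine it spans. Reads also carry no molecular identifiers in the labels, so limits from reads cover counting error of independent calls only.

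Cytosines read in all 8 libraries (1510385 of 3101292) were kept by strand. Runs (gaps of at most 100 bp, at least 3 cytosines), gene ends (1 kb to both sides) and gene interiors (at least 5 cytosines each) with a pooled level of 5% to 95% were tested across the genome, 95079, 7336 and 14638 in all. The test was quasi-binomial regression on group, with the dispersion moderated by limma 3.58.1 (squeezeVar, trend on log coverage, floor 1, R 4.3.3), an F test and Benjamini-Hochberg adjustment over all features of a kind. In simulated reads, changes of 5, 10 and 20 points reached an adjusted p under 0.05 in 0%, 10% and 64% of changed runs. The shares were 10%, 30% and 78% at ends and 26%, 64% and 90% in interiors. Small changes could therefore be missed. Changes were simulated only at well-read features of intermediate level, while 94 of the 174 runs of the 10 genes were over 80%. All features of a kind were given the same dispersion, the median of the moderated values, so these shares leave out how dispersion varies between features. Tables and figures were made with Python 3.11.15, numpy 2.4.6, pandas 2.3.3 and matplotlib 3.10.9.

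The members, lists and rule for named runs were chosen with earlier results of these data known. The rule named every member's ends and interior, its runs at an unadjusted p under 0.05 or else its run of smallest p, and up to 3 genes per list by smallest p. The values of 1 gene so named are not reported here. Alternatives changed coverage, level filter, weights, strands, run definition, windows, the test (limma on logit levels), the replicate block and single mice. The lowest chi-square per run among 28 pairs of libraries was 4.68, so none repeats another. The labels do not say whether mice shared cages or processing days.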

Additional observations from a re-analysis of the deposited data

Results flagged for a closer look

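Among 68 groups of 4 mice at the named runs, gene ends and interiors, 6 (8.82%) held a mouse far from the other 3. All 6 were among the 46 groups at ends and interiors (13.0%) and none among the 22 at named runs. Dixon's test flags about 1 in 20 groups of normally distributed values, which levels near 0% are not. Where the other 3 mice read 0%, as in cocaine mice at 1 end of Lama1 and of Lamb1, any higher value is flagged. The named runs were chosen by p, so their share is no reference. At the nearly unmethylated ends, cocaine 2 stood at 1.446% at the lower-coordinate end of Lama1, where the other cocaine mice were at 0%, and saline 4 stood at 1.844% there, above 0% to 0.190% in the other saline mice. At the start of Lamb1, cocaine 4 read 0.1152% and the other cocaine mice 0%. On 1023 to 1555 reads summed over the cytosines, this allows up to 0.193% to 0.293% if calls are independent. At the start of Agrn, saline 1 read 4.635%, above 0.0652% to 0.747% in the other saline mice. In the Lama3 interior, cocaine 4 was at 85.64%, above 82.8% to 83.2% in the other cocaine mice. In the Lamc3 interior, saline 1 was at 83.65%, above 78.5% to 79.3% in the other saline mice. Of the 6, 2 belong to saline 1, the library with the most values of exactly 0% or 100%, and whether that bears on them was not tested.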

How the results depend on the processing

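No member run, end or interior was called under any alternative, and the lowest adjusted p of the 27 named features was 0.451. Of 433 values of these features, 422 kept their direction and 11 turned positive, in 4 features. For the Lamb2 interior these were 2.17 points at a coverage minimum of 20, 0.787 with equal weight per cytosine, 0.0357 with strands merged, 0.0161 without saline 1 and cocaine 3, 0.171 from 2 kb inward, and a range of -0.861 to 0.631 leaving out single mice. The Hspg2 interior was 0.201 points without saline 1 and cocaine 3 and ranged from -1.08 to 0.513 leaving out single mice, and the Nid2 interior ranged from -1.76 to 0.217. The higher-coordinate end of Lamc3 was 0.106 points in windows of 2 kb. The cause was not tested.

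The number of member runs at an unadjusted p under 0.05, 4 in the main test, was 8 of 174 with no filter on level, 2 with the replicate block, and 2 (without cocaine 1) to 7 (without saline 4) leaving out single mice. Member runs with the lower mean in cocaine, 86 of 141, numbered 47 of 84 at a coverage minimum of 20 and 57 of 91 with at least 5 cytosines, and lower ends, 6 of 6, numbered 3 of 3 at a coverage minimum of 20 and 10 of 13 with no filter on level; fewer or more features were tested in each. All interiors at an unadjusted p under 0.05, 995 in the main test, numbered 1829 without cocaine 4.

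Deviations of same-numbered mice correlated at -0.017, -0.011, 0.0064 and 0.077 over 95079 runs. Those of cocaine and saline mice with unlike numbers correlated at -0.138 to 0.065. Such correlations cannot show whether mice were paired by cage or processing day, which the labels do not say. With the replicate number as a block, 1 run of the genome was called, in place of 0, outside the 10 genes, and 0 ends and 0 interiors. The call rule takes runs only from a difference of 10 points and ends and interiors only from 5 points, whatever their p.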
